A study of Homo sapiens with 2 samples.

Results

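MCAM, JAM3 and NECTIN4 are 3 cell adhesion molecules of the immunoglobulin superfamily, and their transcripts were compared between control A549 cells and A549 cells without NAT10. They were taken by gene symbol and made up 3 of the 1415 genes in the deposited table. A549 is an established human line of lung adenocarcinoma. The control group was the unmodified line, and the NAT10 knockout group was a homozygous clone grown from a single cell after CRISPR/Cas9 cutting with 2 guide RNAs. NAT10 acetylates cytidines in RNA to give N4-acetylcytidine (ac4C). Each group had 1 RNA-seq library of total RNA, so differences come without any measure of the spread between cultures, and the loss of NAT10 and the traits of this 1 clone cannot be told apart.

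Cells hold on to each other and to their surroundings through several families of membrane proteins. Members of the immunoglobulin superfamily carry immunoglobulin-like domains outside the cell, which bind the same molecule or a related one on the next cell. Many of them, these 3 included, span the membrane with a short tail inside, while others such as THY1, CEACAM5 and CEACAM6 are held by a lipid anchor. MCAM, the melanoma cell adhesion molecule, is found on endothelial cells, on smooth muscle and on many melanomas, where it accompanies motility. JAM3, a junctional adhesion molecule, sits at tight junctions and on endothelium and binds its relative JAM2 and a leukocyte integrin. NECTIN4 is a nectin of epithelia and of several carcinomas. It binds NECTIN1 on the next cell and is linked to actin through afadin at adherens junctions.

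The table held only genes that had passed a threshold, and all 1415 rows were beyond a log2 fold change of 1 and below a p-value of 0.05. Being listed was therefore decided on the same 2 libraries, and all 3 genes had to differ to be seen. Levels were given as RPKM, which is reads scaled by exon length and by library size. For 1342 of the 1408 genes with an exon length, including these 3, RPKM times length gave whole reads in both libraries, to within 0.01 reads. The libraries behind them had effective sizes of 6077933 (control) and 5474964 reads (knockout). The transcript of NAT10 was not analysed here, and the knockout label is therefore taken as given. The study itself reported less NAT10 mRNA, less NAT10 protein and a weaker ac4C signal in its knockout cells. Of 12 markers of lung epithelium and A549 cells CDH1 was listed, with 331 control reads and 127 knockout reads. The cell type could not be checked against markers that the table does not list.

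The study located ac4C by sequencing RNA pulled down with an antibody, and looked for repeats of C at the peaks. It writes its motif with dots between the units. The search here allowed no gap and covered coding sequence only, so its runs are not the study's sites. All 3 coding sequences hold such ungapped runs, and the longest one in each is shown. The search was for CNNCNNCNNCNN, a C followed by any 2 bases and repeated at least 4 times, on the sense strand of the longest complete coding sequence of each gene in GENCODE release 29 (GRCh38). Capitals mark the repeated C, and each sequence runs 5′ to 3′.
MCAM: CgcCgcCtgCtgCtgCtg
JAM3: CggCcaCcgCgaCtcCggCtc
NECTIN4: CagCacCttCccCgcCggCagCttCca

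The run of MCAM had 6 units and lies in exon 1 (coding exon, chr11:119317049-119317066, minus strand, bases 36 to 53 of the coding sequence). That of JAM3 had 7 units and lies in exon 1 as well (coding exon, chr11:134069096-134069116, plus strand, bases 13 to 33). NECTIN4 had the longest of the 3, with 9 units in exon 2 (coding exon, chr1:161079616-161079642, minus strand, bases 387 to 413). Such repeats are common. A run of at least 4 units was present in 95.1% of 19497 coding sequences, with a median longest run of 6. Runs at least as long as those of MCAM, JAM3 and NECTIN4 were found in 62.2%, 44.0% and 20.9% of genes. MCAM held 18 runs of 4 or more units in 1938 coding bases, NECTIN4 held 12 in 1530 and JAM3 held 5 in 930. These are descriptions of the letters in the reference, and acetylation of the 3 transcripts was not analysed here.

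MCAM was higher in the knockout, JAM3 was lower, and NECTIN4 was at the edge of detection in both libraries. MCAM (ENSG00000076706, chromosome 11, 119308529 to 119321521, a protein-coding gene on the minus strand of GRCh38 with 7422 exon bases) was at 1.04 RPKM in the control and 4.50 RPKM in the knockout, from 47 and 183 reads. The exact 95% Poisson intervals of these levels, which cover counting error only, ran from 0.766 to 1.39 RPKM in the control and from 3.87 to 5.21 RPKM in the knockout, and did not overlap. MCAM was thus 4.32-fold higher in the knockout, with a 95% interval from 3.12 to 6.09 that again covers counting error only (Clopper-Pearson, from the share of reads). On the log2(RPKM + 1) scale, which understates the change of low genes, its difference of knockout minus control was 1.43. In bulk RNA, a change in each cell and a change in how many cells express a gene cannot be told apart. Among markers of the other cell types that carry MCAM, 0 of 6 endothelial markers and 1 of 5 of pericytes and smooth muscle were listed. The latter was DES, the muscle intermediate filament desmin, at 0 RPKM in the control and 0.741 RPKM in the knockout, from 0 and 10 reads. The smooth muscle genes MYH11 (65 and 150 reads), ACTG2 (0 and 5 reads) and CNN1 (0 and 5 reads), chosen after their values were seen, were listed as higher as well. ACTG2 and CNN1 rest on only 5 reads each. Smooth muscle genes that were lower or not listed were not counted, so these genes show no direction of smooth muscle genes as a set. Whether they bear on the value of MCAM was not tested.

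JAM3 (ENSG00000166086, chromosome 11, 134068925 to 134152001, plus strand, protein-coding, 5451 exon bases) went the other way. It was at 1.87 RPKM in the control and 0.804 RPKM in the knockout, from 62 and 24 reads. The intervals of its levels ran from 1.43 to 2.40 RPKM in the control and from 0.515 to 1.20 RPKM in the knockout, with a gap between them that was narrower than that of MCAM. JAM3 was 2.33-fold lower in the knockout, with an interval from 1.43 to 3.90. Its difference on the log2(RPKM + 1) scale was -0.67.

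NECTIN4 (ENSG00000143217, chromosome 1, 161070995 to 161089599, minus strand, protein-coding, 3502 exon bases) was at 0.235 RPKM in the control, from 5 reads, and at 0 in the knockout. A count of 0 allows up to 3 reads, which is 0.156 RPKM for a gene of this length in the knockout library. Against that floor NECTIN4 was at least 1.50-fold lower if its 5 control reads are taken as exact. With the counting error of both libraries allowed for, the upper limit of the log2 ratio was 0.28, so the interval included no change. A difference in NECTIN4 was not detectable at this depth. It stood at the lower end of what the table holds, since 5 was the smallest number of control reads among the 176 genes with recovered reads at 0 in the knockout, and 72 of them had exactly 5. Its difference on the log2(RPKM + 1) scale was -0.30.

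**Figure D1:**
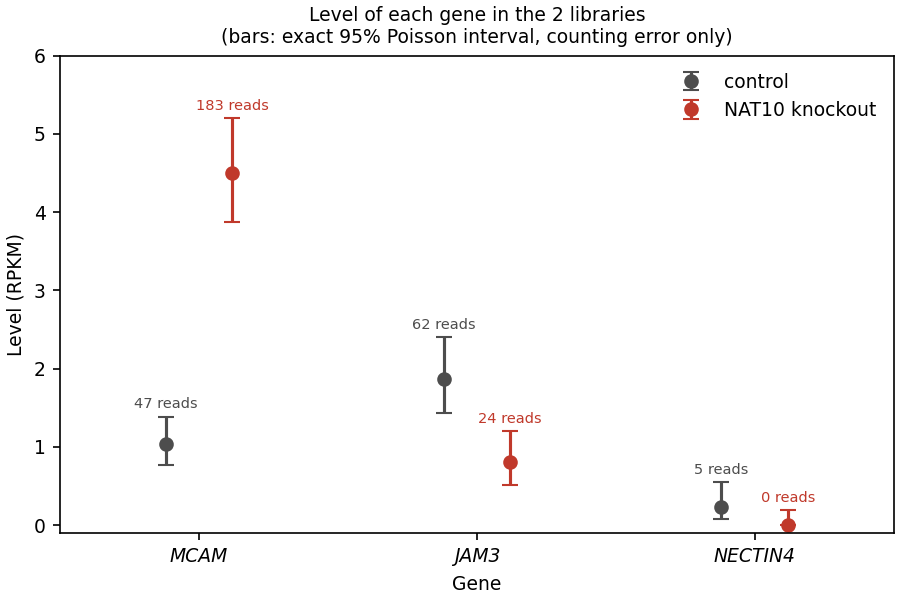
Level of MCAM, JAM3 and NECTIN4 in RPKM (vertical axis) in the control library (grey) and the NAT10 knockout library (red), 1 library each. Bars are exact 95% Poisson intervals of the reads printed above them and cover counting error only. MCAM stands at 1.04 and 4.50 RPKM, JAM3 at 1.87 and 0.804 RPKM, and the bars of NECTIN4 overlap.

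Because both libraries measure all 3 genes, their order can be read within a library, without any scaling between libraries. In the control JAM3 had the highest level per length, MCAM came next and NECTIN4 was lowest. The ratio of MCAM to JAM3 was 0.557 there (95% interval from 0.373 to 0.827), and that of MCAM to NECTIN4 was 4.44 (1.77 to 14.3). On these lengths each neighbour in that order was set apart by more than counting error. The lengths are all exon bases of a gene, 7422 for MCAM and 5451 for JAM3, with 47 and 62 control reads. Whether JAM3 stands above MCAM on the lengths of the transcripts in use was not tested. In the knockout, on the same lengths, the order of the upper pair was turned around. The ratio of MCAM to JAM3 was 5.60 there, from 3.65 to 8.97. JAM3 still stood above NECTIN4, with a lower limit of the ratio of 3.87. From control to knockout the ratio of MCAM to JAM3 changed 9.96-fold, with an exact conditional interval from 5.49 to 18.6. For MCAM against NECTIN4 the lower limit of the change was 3.40-fold. For JAM3 against NECTIN4 it was 0.329, so a change of that ratio was not detectable in either direction. Every listed gene had passed a log2 fold change of 1, MCAM as higher and JAM3 and NECTIN4 as lower. A rise of the ratio of MCAM to either was therefore fixed by the listing and is not a separate result. These intervals describe the reads of 2 libraries and not the conditions.

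Set against the rest of the table on the log2(RPKM + 1) scale, MCAM stood toward the upper end of the higher genes by size. JAM3 stood near the middle of the lower ones and NECTIN4 toward their low end. This order depends on level, since the scale shrinks the change of low genes. By mean RPKM, MCAM stood at percentile 83.2 of the listed genes, JAM3 at 64.7 and NECTIN4 at 4.52. Beyond 1 in size on the log2(RPKM + 1) scale was 1 of the 3 genes, MCAM, where 32.7% of all listed genes were (13.4% higher and 19.4% lower), a share near that of the members. Among the 609 higher genes MCAM had rank 72 by size of this difference. Among the 806 lower genes JAM3 had rank 447 and NECTIN4 rank 722. The interval of the ratio of reads left out no change for MCAM and JAM3, as it did for 72.4% of the 1342 genes with recovered reads. By level, MCAM went from rank 593 in the control to rank 125 in the knockout among the 1415 listed genes, and JAM3 went from rank 389 to rank 620.

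The genes whose pair of levels was nearest to each of the 3 were found by Euclidean distance over log2(RPKM + 1) in the 2 libraries, among protein-coding genes. Nearest to MCAM were GATA2, a transcription factor of blood and endothelium, SLFN11, a restrainer of stressed replication, and HES7, a repressor of the Hes family, at distances of 0.13, 0.14 and 0.27. GATA2 was at 0.959 and 4.10 RPKM in the control and the knockout. SLFN11 was at 1.16 and 4.06 RPKM, and HES7 was at 1.32 and 3.81 RPKM. JAM3 lay in a denser area, with IGFL4, TM4SF4 and AXIN2, a feedback inhibitor of Wnt signalling, at distances of 0.039, 0.046 and 0.055. AXIN2 was at 1.98 and 0.804 RPKM. Around NECTIN4 the nearest were ADORA2A, NRSN1 and SPARC, all at 0 in the knockout and with 6, 6 and 7 control reads. A likeness over 2 libraries is a weak one and many genes share it.

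**Figure D2:**
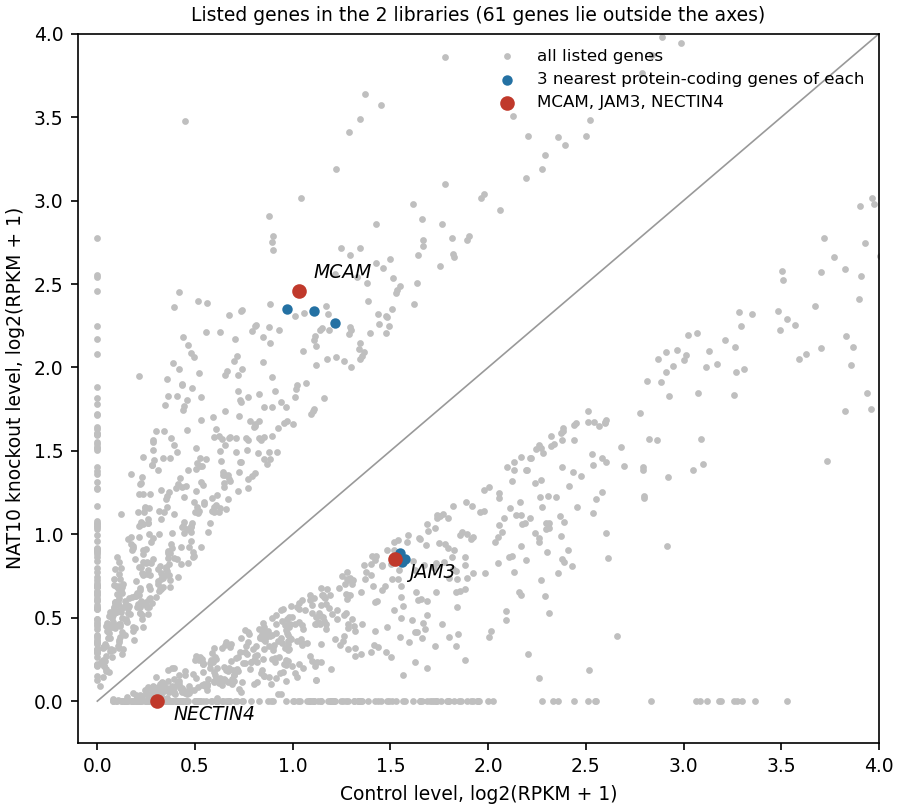
Level of every listed gene in the control (horizontal axis) and in the NAT10 knockout (vertical axis), both in log2(RPKM + 1), with the line of equal level. MCAM, JAM3 and NECTIN4 are red and the 3 nearest protein-coding genes of each are blue. At higher levels the band around the line is empty because the table starts at a log2 fold change of 1. Toward the origin the added 1 RPKM brings low genes close to the line. Outside the axes lie 61 of the 1415 genes.

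The wider family was looked at through a list of 90 immunoglobulin superfamily adhesion genes, of which 9 were in the table, 6 lower and 3 higher in the knockout. Their median difference on the log2(RPKM + 1) scale was -0.30, against -0.32 over all 1415 listed genes, which were 806 lower and 609 higher. Past 1 in size on that scale were 3 of the 9, 1 lower and 2 higher, against 32.7% of all listed genes (19.4% lower and 13.4% higher). The interval of the ratio of reads lay below no change for 5 genes (39.0% of all genes with recovered reads) and above it for 2 (33.4%). The study drew its theme of adhesion in part from these libraries, beside its ac4C sequencing and assays of cell adhesion. The list is therefore not independent evidence of a direction.

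The group of JAM3 held a gene that, like MCAM, was higher in the knockout. ESAM, an adhesion molecule of endothelial tight junctions and platelets, went from 0.394 to 3.25 RPKM, on 7 and 52 reads. It was 8.25-fold higher in the knockout, with an interval of the log2 ratio from 1.90 to 4.43. Of the 16 genes of the junctional adhesion group JAM3 and ESAM were thus listed, in opposite directions. The antisense gene AP000866.2 overlaps ESAM outside its exons and was higher too, on 3 control and 12 knockout reads.

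The remaining family members were mostly low. CEACAM6, a carcinoembryonic antigen family protein of epithelial surfaces, had 374 control reads and 2 knockout reads, and CEACAM5, its near relative, had 6 and 0. The pair is alike in sequence and shares exon bases with a read-through gene, so the split of reads between them is uncertain. VCAM1, the receptor of vascular endothelium for leukocyte integrins, had 6 control reads and 0 knockout reads. THY1, a small surface glycoprotein, went from 30 to 11 reads, with an interval of the log2 ratio from -2.44 to -0.26. ICAM5, an intercellular adhesion molecule of neurons, went from 4 to 11 reads, and its interval from -0.14 to 3.72 included no change. NECTIN4 was the one listed gene of 13 in the nectin group, and MCAM the one of 3 in its own group. The other genes of these groups were not analysed here.

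Known partners of the 3 proteins came from a list of 36 genes, of which 4 were in the table. All 4 were lower in the knockout, where 806 of all 1415 listed genes were. The interval of the ratio of reads left out no change for only 2 of them, WNT5A and CDH1. It did so for 72.4% of all genes with recovered reads, 39.0% on the lower side. Their median difference on the log2(RPKM + 1) scale was -0.64, against -0.32 over all listed genes. CDH1 was past 1 in size on that scale, as were 19.4% of listed genes in the lower direction. For MCAM they were WNT5A and LAMA4. WNT5A, a Wnt ligand that acts through MCAM in cell polarity, went from 1.49 to 0.247 RPKM, on 67 and 10 reads. It was 6.04-fold lower, with an interval of the log2 ratio from -3.72 to -1.63. LAMA4, the laminin chain of vascular basement membranes that MCAM binds, rested on 5 reads in all, each from the control, so no change lay within its interval. MCAM was higher while WNT5A was lower in the same library.

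For JAM3 the listed partner was ITGB2, the beta chain of the leukocyte integrin that binds JAM3. It went from 18 to 7 reads, and its interval from -2.71 to 0.12 included no change. For NECTIN4 it was CDH1, the gene of E-cadherin, which shares the adherens junction with nectins. CDH1 went from 8.82 to 3.76 RPKM, on 331 and 127 reads, with an interval of the log2 ratio from -1.54 to -0.93. The antisense gene AC099314.1 shares 5.62% of the exon bases of CDH1.

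**Figure D3:**
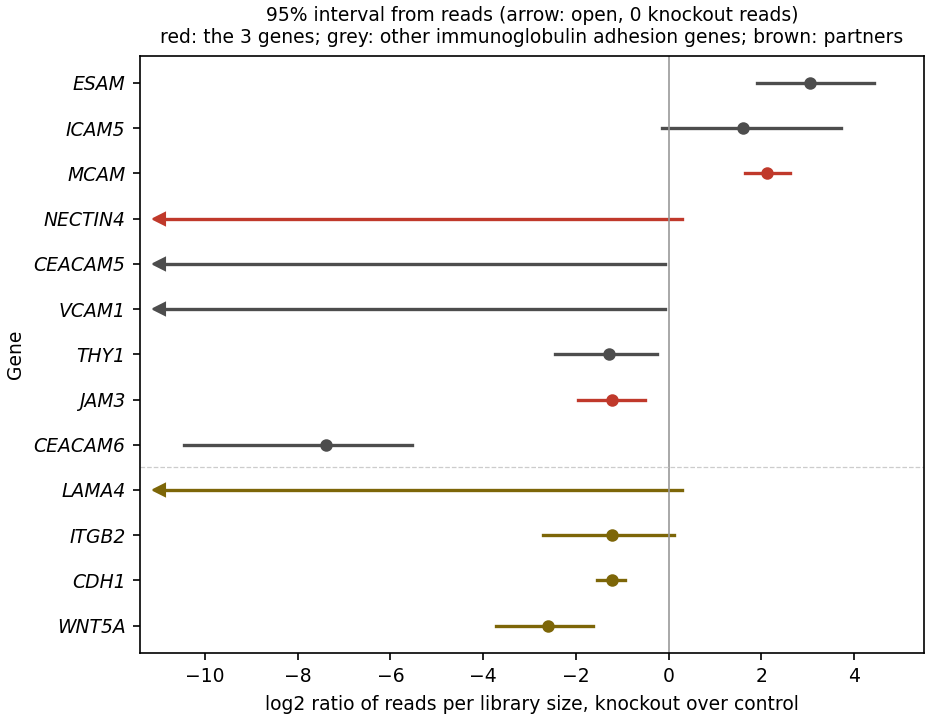
Log2 ratio of reads of knockout over control (horizontal axis) with its 95% Clopper-Pearson interval, which covers counting error only, for the 9 listed immunoglobulin superfamily adhesion genes (above the dashed line) and the 4 listed partners (below it). Red marks MCAM, JAM3 and NECTIN4, and an arrow marks an interval that is open because the knockout had 0 reads. MCAM and ESAM lie to the right of 0, JAM3 lies to the left, and the intervals of NECTIN4, LAMA4, ITGB2 and ICAM5 cross 0.

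MCAM, JAM3 and ESAM all lie on the long arm of chromosome 11. A stretch of 14.7 Mb separates MCAM from JAM3 and holds 10 other listed genes, 6 lower and 4 higher. ESAM lies 5.43 Mb from MCAM and 9.31 Mb from JAM3. On the whole chromosome 81 genes were listed, 54 lower and 27 higher. Within 2 Mb of MCAM 7 other genes were listed, and 6 of them had a lower value in the knockout. None of the 6 was past 1 in size on the log2(RPKM + 1) scale. A gene below 1 RPKM in the control cannot fall that far on it. Of the 6 only AP000757.2, at 7.38 RPKM in the control, could have done so. The intervals of the nearest, USP2-AS1 (7 and 1 reads), and of AP000757.2 (25 and 11 reads) included no change. The intervals of FXYD2 (13 and 2 reads), ABCG4 (12 and 2 reads) and TRIM29 (8 and 0 reads) lay below no change. That of THY1 (30 and 11 reads), 95.9 kb from MCAM, did so too. Within 2 Mb of JAM3 there were 2, the antisense gene AP001775.2, with 13 and 27 reads, and GLB1L2, with 29 and 2 reads. The one listed gene within 2 Mb of NECTIN4 was SLAMF7, with 6 control reads and 0 knockout reads.

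**Figure D4:**
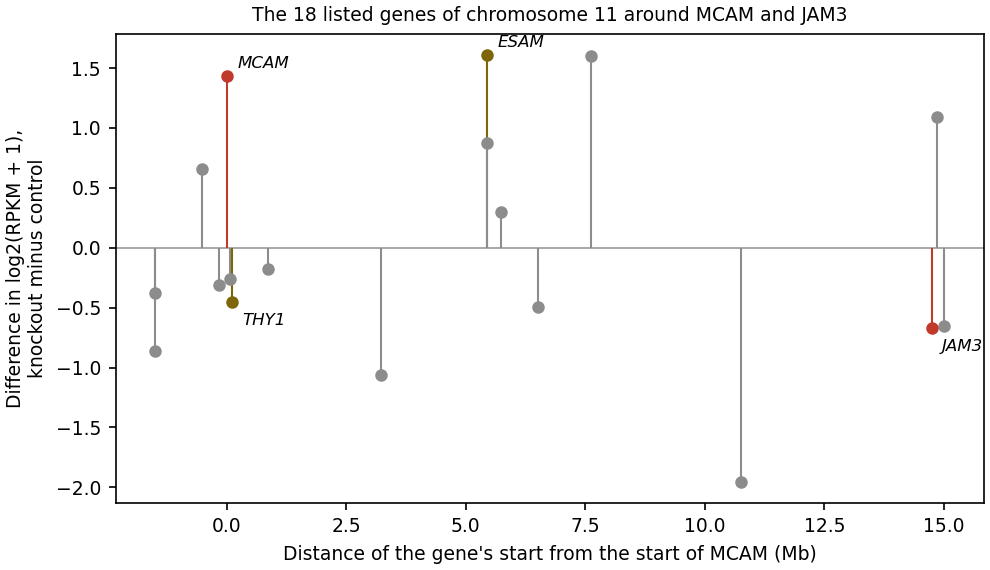
Difference in log2(RPKM + 1) of knockout minus control (vertical axis) for the 18 listed genes of chromosome 11 around MCAM and JAM3, against the distance of each gene's start from that of MCAM in Mb (horizontal axis). MCAM and JAM3 are red, ESAM and THY1 are brown and other genes are grey. Of the 18 genes 11 lie below 0 and 7 above it, with higher and lower genes interspersed.

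Other genes on the opposite strand reach into the exons of MCAM and JAM3, and how the counting treated strand is not given in the sources used here. CBL, which converges on MCAM, shares 509 of the 7422 exon bases of MCAM (6.86%). NCAPD3 shares 465 of the 5451 exon bases of JAM3 (8.53%). Without strand, reads from these stretches cannot be told apart. CBL and NCAPD3 were not analysed here, and their part in the values was not tested. No other gene shared 50-base stretches with more than 1% of those in MCAM or JAM3, and in NECTIN4 0 of 3501 such stretches occurred in another gene.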

How the data were processed

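Total RNA of 2 samples, control and NAT10 knockout, was extracted with RNAiso Plus and made into SMARTer mRNA-Seq libraries, per the labels. The submitters' processing notes name the genome build hg38. The aligner, counter, annotation and strand handling are not given in the sources used here. The authors deposited RPKM for each gene and library. A log2 fold change and a p-value were deposited beside them. These comparison columns were not used, other than to check that all 1415 rows passed the authors' thresholds. Samples were grouped by title, with 1 library per group.

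Reads were recovered as RPKM times the exon length of GENCODE release 29 (GRCh38, matched by Ensembl identifier, positions counted from 1), on effective sizes of 6077933 (control) and 5474964 (knockout). A value within 0.01 of a whole number counted as whole, and 95.3% of genes with a length were whole in both libraries. MCAM, JAM3 and NECTIN4 had 230, 86 and 5 reads over both libraries, which sets the precision of each value. Without molecular identifiers, intervals and floors (3 reads) cover counting error only. With 1 library per group no test was made. The main measure was the difference in log2(RPKM + 1), and past 1 in size counted as called. Intervals are Poisson, Clopper-Pearson or conditional exact intervals at 95%, from SciPy 1.17.1 under Python 3.11.15. Scripts were tested on simulated data. The genes and lists were chosen with earlier results of these data known. Named genes were the 3 members, all listed genes of the family and partner lists, and the 3 protein-coding genes nearest to each member. Genes near the members on the chromosomes, overlapping genes and the smooth muscle genes MYH11, ACTG2 and CNN1 were added after the values were seen. Of the marker lists, lung epithelial and A549 had 1 of 12 genes listed (CDH1), endothelial 0 of 6, pericyte and smooth muscle 1 of 5 (DES, 0 and 10 reads), fibroblast 1 of 5 (COL1A1, 30 and 12 reads) and leukocyte 0 of 4. Other pseudocounts, filters on reads and a larger threshold were tried as alternatives.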

Additional observations from a re-analysis of the deposited data

How the results depend on the processing

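No paired analysis was possible because each group had 1 library. Leaving out a library was not possible for the same reason. The direction of MCAM, JAM3 and NECTIN4 was the same under every setting run, which no pseudocount could have changed. The difference of MCAM, 1.43 with a pseudocount of 1 RPKM, was 2.01 with 0.1 RPKM, 0.65 with 5 RPKM, 2.11 without a pseudocount and 2.10 on recovered reads with 0.5 read added. JAM3 ranged from -1.22 without a pseudocount to -0.24 with 5 RPKM. NECTIN4 ranged from -3.31 with 0.5 read added to -0.066 with 5 RPKM. All settings use the same reads, so these ranges do not measure counting error. A pseudocount pulls low genes toward 0, so the number of genes past 1 depends on it. With 0.1 RPKM it was 3 of the 3 members, 9 of the adhesion list, 2 of the partners and 1275 of all listed genes, and with 5 RPKM it was 0, 1, 0 and 66, against 1, 3, 1 and 463. Beyond 2 in size there were 0, 1, 0 and 58. Where at least 10 mean reads were required, 189 of the 669 listed genes kept were past 1. Where more than 20 control reads were required, 133 of the 394 kept were. These filters keep fewer genes, and both remove NECTIN4. Depth limits NECTIN4 most, since 1 read is worth 0.047 RPKM in its control library.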
